A study of Sus scrofa with 8 samples.

Results

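Lysosomes break down the lipids, sugar chains, proteins and nucleic acids that reach them by endocytosis, phagocytosis and autophagy. Their soluble hydrolases work at acidic pH, often with small helper proteins that lift lipids out of membranes, and the limiting membrane carries heavily glycosylated proteins, transporters and ion channels. Many genes of this system are transcribed under the control of the MiT/TFE family of transcription factors, and in the liver both hepatocytes and resident macrophages depend on it to process lipoprotein cholesterol and stored lipid.

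The genes described here are lysosomal hydrolases, their activator proteins, lysosomal membrane proteins and the MiT/TFE factors. Their rows were matched by gene symbol, from a list drawn up with earlier results of these data known. The list holds 39 gene symbols, of which 38 had a row among the 18103 genes and transcripts of the expression table. NAGLU had no row under that symbol and is not counted further. MCOLN3 was too low for the test across all genes, so 37 members stood among the 13175 features tested.

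Expression was measured by RNAseq of liver from Landrace x Large White male pigs, in FPKM (fragments per kilobase of transcript scaled to the mapped fragments of the library, a level per length). The initial state was sampled at 4 months of age by a biopsy under laparotomy. The steatosis group comprised the same animals at 6 months of age, sampled after euthanasia, when they had eaten for 2 months a steatotic diet rich in saturated fat, fructose, cholesterol and cholate and poor in methionine and choline. Each group had 4 libraries, numbered pools 1 to 4, and each library was a pool of RNA from 2 pigs, so the spread given here is between pools and not between animals. No untreated animals of the later age were analysed here, so diet, age and the way of sampling cannot be told apart.

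The libraries lay between 91.9% and 100% of the depth of the deepest, as read from the steps between low FPKM values. The tissue carried liver markers: 9 hepatocyte genes summed to between 54857 and 86438 FPKM initially and to between 47682 and 57798 FPKM in steatosis. Initial pool 1 stood apart from the other libraries. Its summed level of 11 skeletal muscle and stomach genes was 3582 FPKM, against 12.9 to 30.0 in the other initial pools and 5.95 to 6.32 in steatosis.

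The first question was which lysosomal genes differed between the initial state and steatosis. Calls came from limma, fitted to log2(FPKM + 0.1) of all 13175 features, and required both a Benjamini-Hochberg adjusted p under 0.01 and a change of more than 1 on the log2 scale. By this rule 11 of the 37 members tested were higher in steatosis and 0 were lower, beside 6.01% higher and 0.334% lower among all features tested. The 11 were PLD3, GM2A, ASAH1, GLB1, PSAP, LAPTM5, MANBA, NPC2, PPT1, SCARB2 and HEXA. With the limit on the fold removed, 24 members were higher and 0 lower, beside backgrounds of 12.9% and 0.744%. At an unadjusted p under 0.05, 34 members were higher and 0 were lower, beside 37.8% and 4.13% of all features, and treat (limma's test of whether a change exceeds the fold limit) called 2 higher (PSAP and PLD3) and 0 lower, beside 0.516% and 0.00759%.

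The fitted log2 fold changes of the 37 members ran from 0.01 for SMPD1 to 2.06 for PLD3, with a median of 0.82 against 0.25 over all features tested. The positive median of all features depends on how the libraries are scaled. After division of each library by a median ratio (its typical ratio to the average library), the median of all features became -0.01 and that of the members 0.54. Under that scaling 6 members were still called (PLD3, GM2A, ASAH1, GLB1, PSAP and LAPTM5), beside 3.11% of all features, 15 were higher at any fold, beside 5.66%, and 0 were lower by either rule, beside 0.639% and 2.92% of all features. All 11 members called on FPKM as deposited were among these 15. The 9 that no longer passed the p limit were GUSB, FUCA1, ARSA, SGSH, LIPA, NPC1, LGMN, LAMP1 and TFEB.

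**Figure D1:**
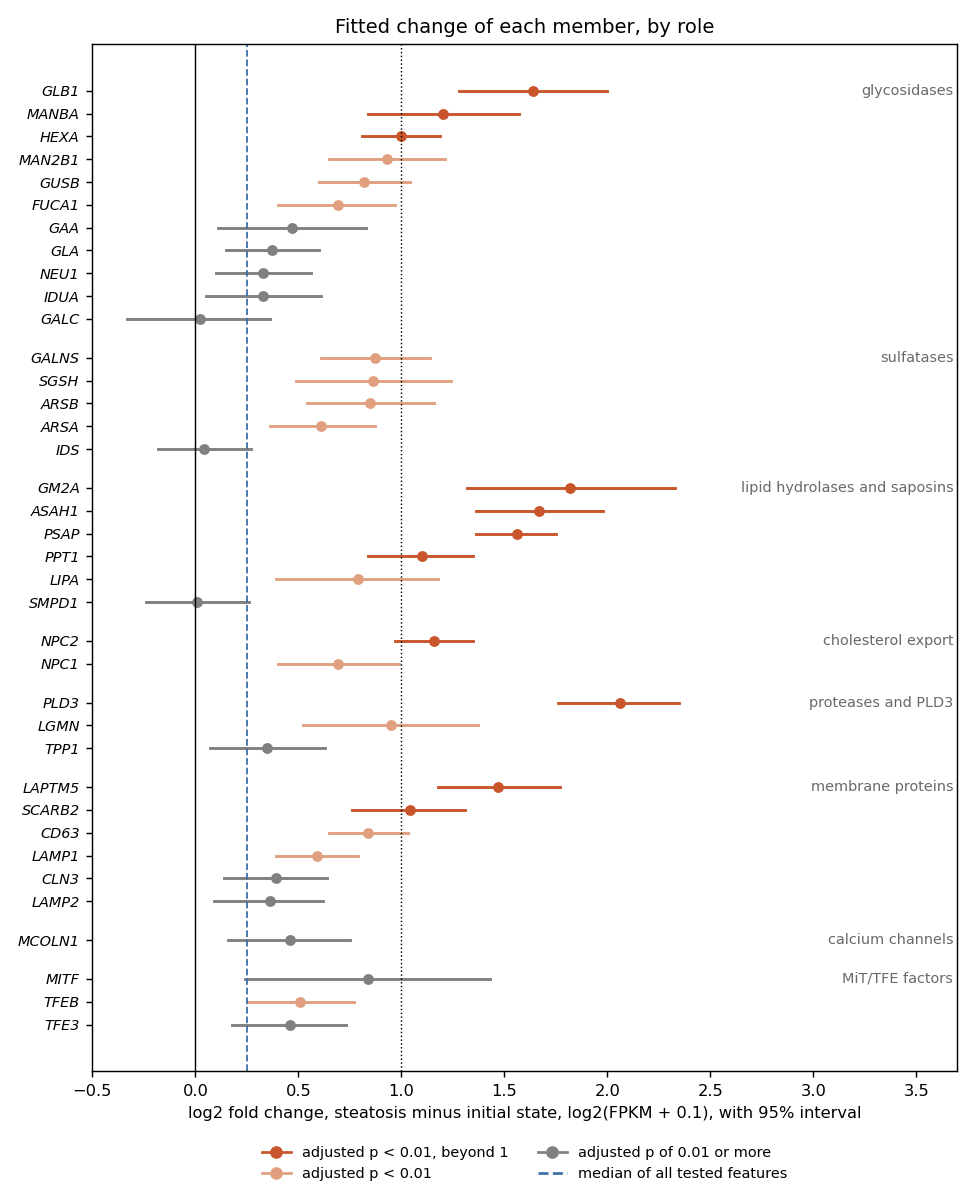
Fitted log2 fold change (steatosis minus initial state, log2(FPKM + 0.1) scale) of the 37 lysosomal members tested, grouped by role, with 95% intervals. Dark orange points are the 11 members called, light orange points the 13 past the p limit with a smaller fold, grey points the other 13, and the dashed blue line is the median of all features (0.25); the dotted line marks the fold limit of 1.

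For 31 of the 38 listed members all 4 steatosis pools lay above all 4 initial pools, beside 29.6% of all features tested. The other 7 members overlapped between groups, and 0 had all steatosis pools below all initial pools, beside 2.53% of all features. Pools of the same number could be set side by side, and the steatosis pool was the higher in all 4 such pairs for 33 members, beside 44.1% of all features tested.

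The enzymes and activators that take apart sphingolipids held the 2 largest changes after PLD3, those of GM2A and ASAH1. Of the 6 lipid hydrolases and saposins tested, 4 were called and 5 were higher at any fold, beside 6.01% and 12.9% of all features. Their median log2 fold change was 1.33. GM2A (gene 100515283, chromosome 16, 71742090 to 71767872) encodes the activator that presents GM2 ganglioside to beta-hexosaminidase. It stood at 20.1, 30.0, 29.2 and 28.3 FPKM in initial pools 1 to 4 and at 77.9, 140, 108 and 66.9 FPKM in steatosis pools 1 to 4. The lowest steatosis pool was more than double the highest initial pool, and the steatosis pools were widely spread among themselves. The means were 26.9 ± 4.59 and 98.3 ± 33.0 FPKM (SD, n = 4 pools each), a log2 fold change of 1.82 (SE 0.23, limma adjusted p 0.000485).

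PSAP (gene 100153167, chromosome 14, 74734185 to 74820645) encodes prosaposin, the precursor of the 4 saposins that activate sphingolipid hydrolases. Its levels were 108, 110, 116 and 123 FPKM before the diet, then 327, 357, 355 and 305 FPKM in steatosis. Both groups were tight and far apart. The log2 fold change was 1.56 (SE 0.09, limma adjusted p 8.44e-06), from a mean of 114 ± 6.69 to 336 ± 24.6 FPKM (SD, n = 4 pools each).

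ASAH1 (gene 100512932, chromosome 17, 5712048 to 5749811), the acid ceramidase that cleaves ceramide into sphingosine and a fatty acid, was measured at 9.59, 12.1, 10.4 and 11.4 FPKM in initial pools 1 to 4 and at 33.2, 44.0, 35.1 and 28.4 FPKM in the steatosis pools. The groups did not overlap, and its log2 fold change was 1.67 (SE 0.14, limma adjusted p 6.09e-05). PPT1 (gene 100517533, chromosome 6, 95840906 to 95860858), a thioesterase that removes palmitate from proteins, stood at 10.6, 12.7, 12.7 and 10.2 FPKM initially and at 24.7, 27.7, 24.5 and 22.0 FPKM in steatosis. All its steatosis pools were higher, with a log2 fold change of 1.10 (SE 0.11, limma adjusted p 0.000189).

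LIPA, the acid lipase that hydrolyses cholesteryl esters and triglycerides delivered to the lysosome, was level with PSAP in the initial state, below only LGMN. Its mean was 114 ± 21.6 FPKM initially and 197 ± 37.2 FPKM in steatosis (SD, n = 4 pools each), and its log2 fold change of 0.79 passed the p limit only narrowly (limma adjusted p 0.00983). It kept that call in 1 of the 8 fits that left out a library, with adjusted p from 0.00551 without steatosis pool 4 to 0.0314 without steatosis pool 2. SMPD1, the acid sphingomyelinase, averaged 15.1 ± 1.66 and 15.2 ± 1.41 FPKM (SD, n = 4 pools each). The fitted log2 fold change of SMPD1 was 0.01, with a 95% interval from -0.24 to 0.26 (limma adjusted p 0.959), and it was -0.26 after scaling by the median ratio (adjusted p 0.104).

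**Figure D2:**
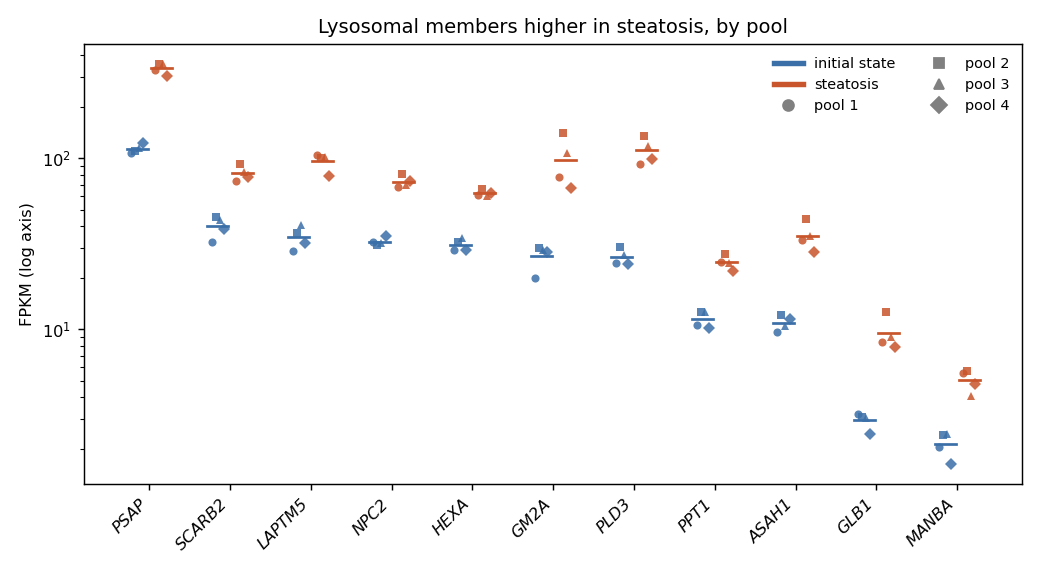
FPKM (log axis) of the 11 called lysosomal members in each pool (points, shaped by pool number), initial state in blue and steatosis in orange, with horizontal lines at the group means. The groups of every member shown are separate, and steatosis pool 2 holds the highest value of 10 of them.

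Glycosidases remove single sugars from glycolipids, glycoproteins and glycosaminoglycans. Of the 11 tested, 3 were called and 6 were higher at any fold, beside 6.01% and 12.9% of all features. Their median log2 fold change was 0.69. GLB1 (gene 100624593, chromosome 13, 18878407 to 18978999), the beta-galactosidase that acts on GM1 ganglioside and keratan sulfate, was at 3.21, 3.09, 3.03 and 2.45 FPKM initially and at 8.42, 12.6, 9.07 and 7.84 FPKM in the steatosis pools. A low level in all initial pools was followed by a higher one in all steatosis pools, with a log2 fold change of 1.64 (SE 0.16, limma adjusted p 0.000148). MANBA (gene 100524326, chromosome 8, 118251122 to 118361903), the beta-mannosidase of N-glycan breakdown, moved from 2.04, 2.41, 2.45 and 1.64 FPKM to 5.57, 5.71, 4.06 and 4.8 FPKM. Its log2 fold change was 1.2 (SE 0.17, limma adjusted p 0.000818) and its groups were separate.

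HEXA (gene 100142664, chromosome 7, 60878531 to 60911537), the alpha subunit of beta-hexosaminidase, stood at 29.3, 32.3, 34.0 and 29.1 FPKM initially and at 60.7, 66.5, 60.1 and 62.7 FPKM in steatosis. The difference was uniform over the pools, but its log2 fold change of 1.0 (SE 0.09, limma adjusted p 7e-05) lay at the fold limit. It dropped to 0.97 and under the limit without initial pool 1, without initial pool 4 or without steatosis pool 2.

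Past the p limit with a smaller fold were MAN2B1, an alpha-mannosidase (log2 fold change 0.93), GUSB, the beta-glucuronidase (0.82), and FUCA1, the alpha-fucosidase (0.69). After scaling by the median ratio GUSB (0.54, limma adjusted p 0.0166) and FUCA1 (0.41, adjusted p 0.0235) missed it, and FUCA1 passed in 4 of the 8 fits that left out a library. The acid alpha-glucosidase GAA (0.47), the alpha-galactosidase GLA (0.37), the sialidase NEU1 (0.33) and the alpha-iduronidase IDUA (0.33) missed the p limit, with limma adjusted p of 0.0512, 0.0222, 0.0361 and 0.073. The galactosylceramidase GALC averaged 6.08 ± 1.09 and 6.12 ± 0.875 FPKM (SD, n = 4 pools each). GALC had a log2 fold change of 0.02, with a 95% interval from -0.33 to 0.36 (limma adjusted p 0.947), and became -0.25 after scaling by the median ratio (adjusted p 0.223).

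Sulfatases remove sulfate groups from glycosaminoglycans and sulfatide. None of the 5 sulfatases was called by limma and none by treat. At an unadjusted p under 0.05, 4 were higher, beside 37.8% of all features. The same 4 were higher at an adjusted p under 0.01, beside 12.9%. These 4 were GALNS, which acts on keratan and chondroitin sulfate (log2 fold change 0.87), SGSH of heparan sulfate breakdown (0.86), ARSB of dermatan sulfate breakdown (0.85) and ARSA, the arylsulfatase of sulfatide (0.61). SGSH and ARSA lost this call after scaling by the median ratio (limma adjusted p 0.0258 and 0.0211) and kept it in 4 and 5 of the 8 fits that left out a library. IDS, the iduronate sulfatase, was the most abundant of the 5 in both groups, at 37.0 ± 1.5 and 38.3 ± 4.55 FPKM (SD, n = 4 pools each). For IDS the log2 fold change was 0.04, with a 95% interval from -0.18 to 0.27 (limma adjusted p 0.771), and -0.23 after scaling by the median ratio (adjusted p 0.152).

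The 2 proteins that hand free cholesterol out of the lysosome differed in level and in size of change. NPC2 (gene 397410, chromosome 7, 97730532 to 97740087), the soluble carrier, was at 32.4, 31.2, 32.0 and 34.9 FPKM before the diet and at 68.1, 80.6, 69.7 and 74.0 FPKM in steatosis. Each steatosis pool was far above each initial pool, for a log2 fold change of 1.16 (SE 0.09, limma adjusted p 3.39e-05). NPC1 (gene 397591), the membrane transporter that receives cholesterol from NPC2, averaged 3.61 ± 0.542 and 5.88 ± 0.569 FPKM (SD, n = 4 pools each), with a log2 fold change of 0.69 (SE 0.13, limma adjusted p 0.00441). NPC1 passed the p limit in 3 of the 8 fits that left out a library, and after scaling by the median ratio its log2 fold change was 0.43 (adjusted p 0.03).

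PLD3 (gene 100625322, chromosome 6, 48645347 to 48667394), a lysosomal exonuclease of single-stranded nucleic acids from the phospholipase D family, had the largest fitted change of the 37 members tested. It was at 24.4, 30.2, 27.4 and 24.1 FPKM in initial pools 1 to 4 and at 93.2, 135, 118 and 98.9 FPKM in the steatosis pools. The groups were widely separated, with means of 26.5 ± 2.87 and 111 ± 19.1 FPKM (SD, n = 4 pools each) and a log2 fold change of 2.06 (SE 0.13, limma adjusted p 1.58e-05). LGMN, the asparaginyl endopeptidase legumain, was the most abundant member in both groups, with means of 257 ± 61.0 and 492 ± 96.3 FPKM (SD, n = 4 pools each). Its log2 fold change of 0.95 (SE 0.19, limma adjusted p 0.00581) lay just under the fold limit. It passed both limits without initial pool 2 (1.04), initial pool 3 (1.05) or steatosis pool 4 (1.05), and missed the p limit in the other 5 fits that left out a library (adjusted p up to 0.019) and after scaling by the median ratio (0.67, adjusted p 0.0246). TPP1, the tripeptidyl peptidase, did not pass (log2 fold change 0.35, limma adjusted p 0.0606).

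Among the 6 membrane proteins, 2 were called and 4 were higher at any fold, beside 6.01% and 12.9% of all features. LAPTM5 (gene 100624193, chromosome 6, 87363911 to 87390371), a transmembrane protein mainly of blood-derived cells, was at 28.7, 36.8, 40.8 and 32.2 FPKM initially and at 105, 99.9, 102 and 78.5 FPKM in steatosis. The groups were separate, with a log2 fold change of 1.47 (SE 0.13, limma adjusted p 9.35e-05). SCARB2 (gene 414407, chromosome 8, 71838395 to 71910461) encodes LIMP-2, a membrane receptor that sorts an enzyme to the lysosome.

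SCARB2 stood at 32.4, 45.7, 43.4 and 38.7 FPKM initially and at 73.9, 92.5, 83.0 and 77.8 FPKM in steatosis. Its log2 fold change was 1.04 (SE 0.12, limma adjusted p 0.000404) but came to 0.94 without initial pool 1 and 0.97 without steatosis pool 2, which ended the call. The tetraspanin CD63 (log2 fold change 0.84) and LAMP1 (0.59) passed the p limit with smaller folds. After scaling by the median ratio CD63 still passed (0.56, limma adjusted p 0.00444) and LAMP1 did not (0.32, adjusted p 0.0449). LAMP2 (0.36) and the Batten disease protein CLN3 (0.39) did not pass, with limma adjusted p of 0.0491 and 0.0268.

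The mucolipins are cation channels that release calcium from the lysosome. MCOLN1 was at 5.32, 4.26, 4.94 and 4.61 FPKM initially and at 6.09, 7.97, 6.75 and 5.7 FPKM in steatosis. Its groups did not overlap, but its log2 fold change of 0.46 missed the p limit (limma adjusted p 0.0277). MCOLN3 was listed at 0.01, 0.03, 0.04 and 0.04 FPKM before the diet and at 0.25, 1.43, 0.92 and 0.67 FPKM in steatosis. Since a level this low in the initial state corresponds to about 0.596 to 2.60 reads a library, against about 15.1 to 87.2 in steatosis, no fold is given. The groups were separate (exact permutation test, two-sided, of mean FPKM, p = 0.0286, the smallest that 4 pools against 4 allow).

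Of the MiT/TFE factors, none was called by the fold rule, and none by treat. All 3 were higher at an unadjusted p under 0.05, beside 37.8% of all features. After scaling by the median ratio none passed the p limit. TFEB, TFE3 and MITF then had log2 fold changes of 0.24, 0.18 and 0.57 (limma adjusted p 0.0868, 0.229 and 0.15). TFEB was at 6.05, 6.03, 5.30 and 4.72 FPKM in initial pools 1 to 4 and at 8.23, 7.89, 7.13 and 8.28 FPKM in steatosis. These groups were separate, with a log2 fold change of 0.51 (SE 0.11, limma adjusted p 0.0097). The adjusted p was over 0.01 in all 8 fits that left out a library (0.0114 to 0.0357) and came to 0.0199 once pool numbers entered as a block.

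TFE3 was at 7.89, 11.4, 9.89 and 8.64 FPKM initially and at 13.7, 12.2, 13.1 and 12.5 FPKM in steatosis, without overlap, for a log2 fold change of 0.46 (limma adjusted p 0.0212). MITF was at 3.47, 2.08, 1.65 and 1.44 FPKM initially and at 3.04, 4.66, 4.51 and 2.99 FPKM in steatosis. Initial pool 1, the pool with muscle and stomach genes, exceeded the lowest steatosis pools. The log2 fold change of MITF was 0.84 (limma adjusted p 0.0413), and 1.08 without initial pool 1 (adjusted p 0.00614). The part of the muscle and stomach genes in this value was not tested. Without initial pool 1, 10 members were called, 21 were higher at any fold, and the median log2 fold change of the members was 0.74.

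The 38 listed members summed to 1104, 1323, 1350 and 1141 FPKM before the diet and to 2267, 2681, 2537 and 2130 FPKM after it. The mean thus went from 1229 ± 125 to 2404 ± 251 FPKM (SD, n = 4 pools each), a ratio of 1.96. By role, the sum of the lipid hydrolases and saposins stood at a ratio of 2.41, that of the cholesterol exporters at 2.18, that of the proteases with PLD3 at 2.03 and that of the membrane proteins at 1.76. The sums of glycosidases, MiT/TFE factors and sulfatases had ratios of 1.67, 1.43 and 1.33.

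**Figure D3:**
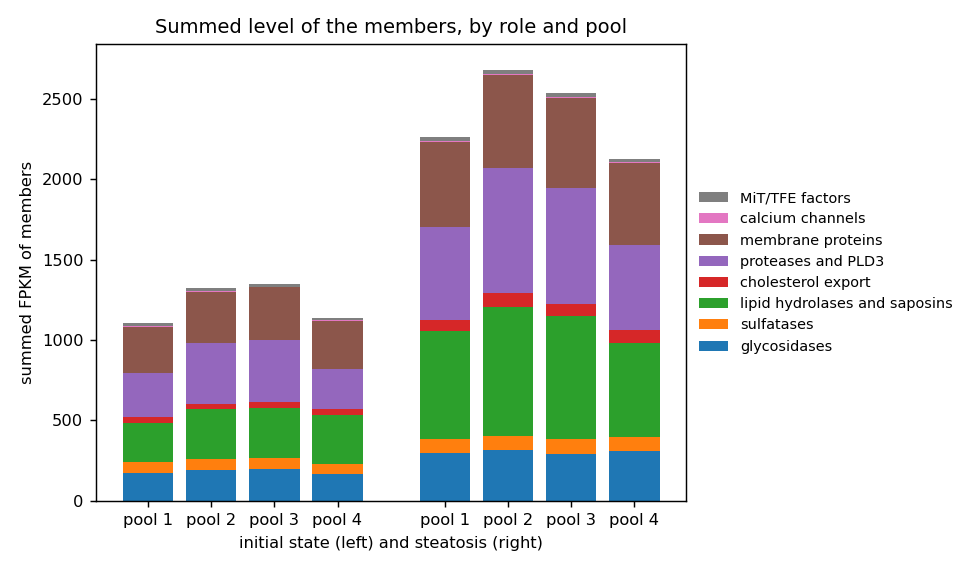
Summed FPKM of the 38 listed lysosomal members in each pool, as stacked bars coloured by role, initial state on the left and steatosis on the right. The whole bars reach 1104 to 1350 FPKM initially and 2130 to 2681 FPKM in steatosis. The lipid hydrolases and saposins range from 245 to 316 FPKM initially and from 584 to 801 FPKM in steatosis, while the sulfatases range from 61.3 to 71.6 and from 85.8 to 91.4 FPKM.

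The make-up of this summed level shifted between members. LGMN held 20.7% ± 2.97 of it in the initial state and 20.3% ± 1.92 in steatosis (SD, n = 4 pools each), and was first in rank in both. PSAP went from 9.34% ± 1.12 to 14.0% ± 0.509 and from rank 3 to rank 2. Its initial rank was close to a tie with LIPA at rank 2, since both had an initial mean of 114 FPKM. PLD3 went from 2.16% ± 0.112 to 4.62% ± 0.382, or from rank 15 to rank 6, and GM2A from 2.18% ± 0.275 to 4.02% ± 0.938, or from rank 14 to rank 7. IDS went from 3.02% ± 0.227 to 1.59% ± 0.105 and LAMP2 from 3.58% ± 0.515 to 2.33% ± 0.174. These shares are descriptions of levels per length and were not tested.

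Ratios of FPKM within a library do not depend on how libraries are scaled, and 8 pairs of members were compared in this way. The pairs were chosen with earlier results of these data known, so their p values describe separation and are no independent test. The ratio of NPC2 to NPC1 was 9.21 ± 1.54 in the initial state and 12.5 ± 1.47 in steatosis (SD, n = 4 pools each), without overlap (log2 difference 0.45, two-sided exact permutation p = 0.0286, Benjamini-Hochberg adjusted over the 8 pairs 0.0458). The ratio of the activator GM2A to its enzyme subunit HEXA was 0.860 ± 0.126 and 1.56 ± 0.475, so that GM2A was below HEXA in all initial pools and above it in all steatosis pools (log2 difference 0.82, same exact p). LAPTM5 relative to LAMP1 went from 0.358 ± 0.0379 to 0.664 ± 0.0927 (log2 difference 0.89, same exact p), and LAMP1 relative to LAMP2 from 2.22 ± 0.229 to 2.60 ± 0.157 (log2 difference 0.23, same exact p).

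MCOLN3 relative to MCOLN1 was 0.00642 ± 0.00310 and 0.119 ± 0.0578 (same exact p), with the initial values resting on the few reads given above. The ratio of PSAP to ASAH1 overlapped between groups, at 10.5 ± 0.990 and 9.70 ± 1.12 (SD, n = 4 pools each, log2 difference -0.12, exact permutation p = 0.3143). CD63 to LAMP1 (0.899 and 1.07, exact permutation p = 0.0571) and MITF to TFEB (0.384 and 0.488, exact permutation p = 0.1714) also overlapped.

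**Figure D4:**
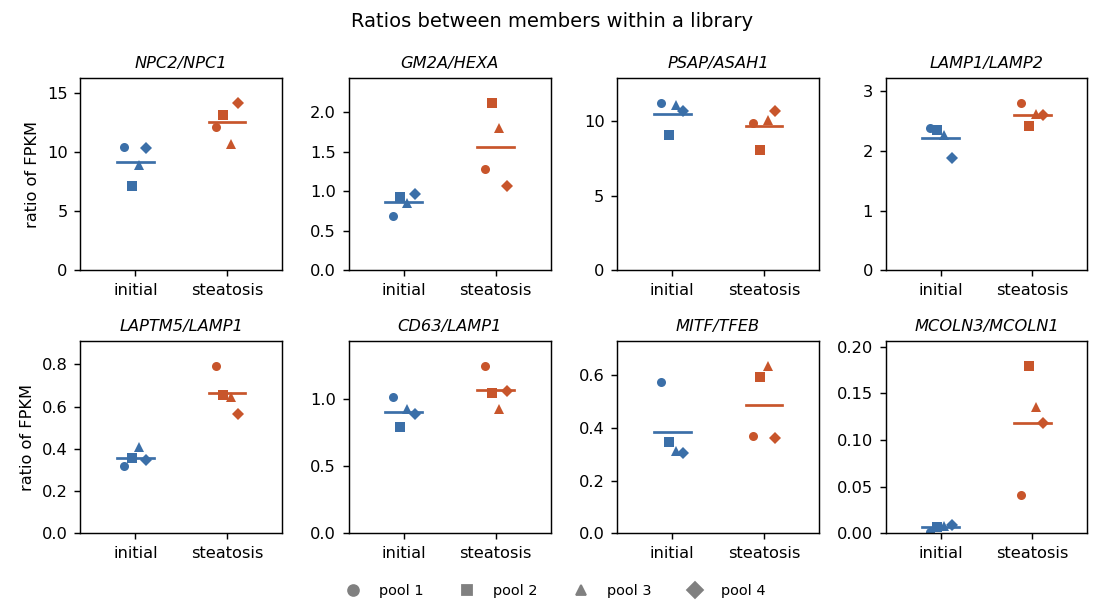
Ratio of FPKM between the members of 8 pairs in each pool (points, shaped by pool number), initial state in blue and steatosis in orange, with horizontal lines at the group means. NPC2/NPC1, GM2A/HEXA, LAMP1/LAMP2, LAPTM5/LAMP1 and MCOLN3/MCOLN1 are separate between groups, and the other 3 pairs overlap.

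Within the steatosis group, pool 2 was the highest for 10 of the 11 called members, the exception being LAPTM5, which was highest in pool 1. Among all 38 listed members pool 2 was the highest for 19, beside 29.0% of all features tested. Pool 4 was the lowest steatosis pool for 17 of the 38. Without steatosis pool 2, 9 members were called and 17 were higher at any fold.

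Other lysosomal genes were read from a second list of 26, of which 23 were tested. Of these, 7 (30.4%) were called higher and 13 (56.5%) were higher at any fold, beside 6.01% and 12.9% of all features. The median log2 fold change of this list was 0.63. The largest change in it was that of ACP5, the tartrate-resistant acid phosphatase of macrophages and osteoclasts. ACP5 was at 13.1, 12.8, 12.4 and 9.97 FPKM before the diet and at 154, 252, 219 and 132 FPKM in steatosis, a log2 fold change of 3.92 (SE 0.20, limma adjusted p 4.41e-06). Also called were the heparan sulfate endoglycosidase HPSE (1.52) and the acid nuclease DNASE2 (1.42).

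Of 10 genes that tag and sort lysosomal enzymes, GGA2, an adaptor of the mannose phosphate receptors, was called (log2 fold change 1.12). This call was 10.0% of the list, beside 6.01% of all features. At any fold 4 were higher, or 40.0% beside 12.9%. Among these were GNPTAB, which makes the mannose phosphate tag (0.94), and SUMF1, which activates all sulfatases (0.52). Of 19 genes of the TORC1 machinery on the lysosome, limma called 0 and treat 0. At an unadjusted p under 0.05, 10 of the 19 were higher, beside 37.8% of all features. At an adjusted p under 0.01, 3 were higher (LAMTOR4, RRAGC and FNIP2), or 15.8% beside 12.9% of all features. Of 21 autophagy genes, limma called 0 and treat 0. At an unadjusted p under 0.05, 12 of the 21 were higher and 1 lower, beside 37.8% and 4.13% of all features. At an adjusted p under 0.01, 2 were higher (ATG3 and the cargo receptor SQSTM1), or 9.52% beside the same 12.9%. The medians of these lists were 0.47 for sorting, 0.37 for TORC1 and 0.32 for autophagy, against 0.82 for the lysosomal members and 0.25 for all features. Under median ratio scaling 4 of the other lysosomal genes and 0 of the sorting genes were called (GGA2 lost), beside 3.11% of all features. At any fold 9 other lysosomal, 2 sorting, 0 TORC1 and 0 autophagy genes were higher under that scaling, beside 5.66%.

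**Figure D5:**
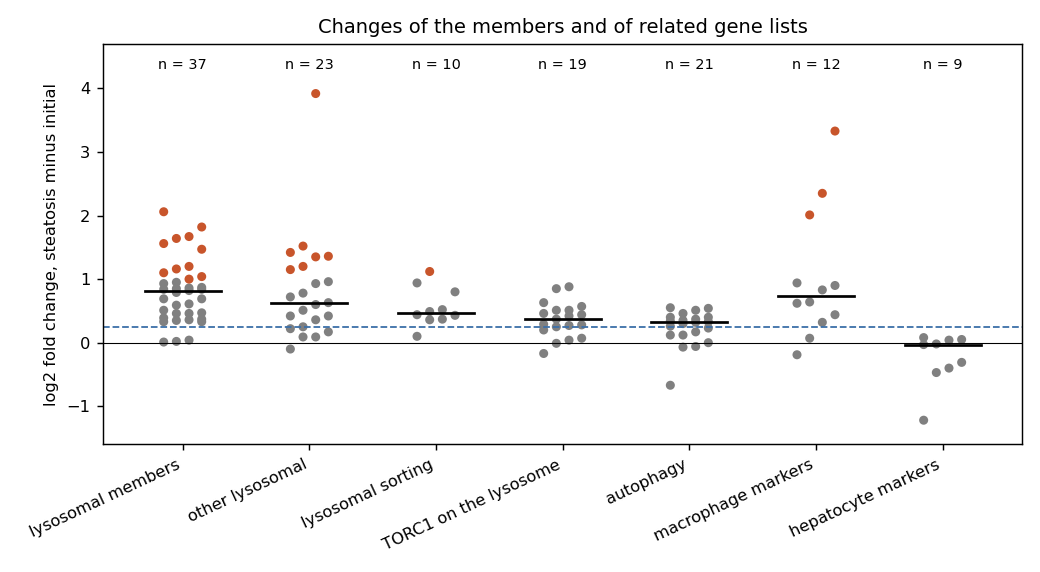
Fitted log2 fold change (steatosis minus initial state) of each tested gene (points) in the lysosomal list, 4 other pathway lists and the macrophage and hepatocyte markers. Orange points are called, grey points are not, black bars are list medians and the dashed blue line is the median of all features (0.25).

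Macrophages are rich in lysosomes, and some of their markers differed between the groups. Of 12 macrophage markers, 3 were called higher (CD68, MARCO and MSR1), beside 6.01% of all features. At any fold 8 were higher, beside 12.9%. Under median ratio scaling these counts were 3 and 3, beside 3.11% and 5.66% of all features. CD163 (log2 fold change 0.32), C1QC (0.44), C1QA (0.07) and CD14 (-0.19) did not pass the p limit. No marker was at 0 in any library. The 12 markers summed to 918, 1051, 1010 and 1185 FPKM before the diet and to 1389, 1409, 1408 and 1586 FPKM in steatosis. This sum was highest in steatosis pool 4, the steatosis pool with the lowest sum of the lysosomal members. The highest steatosis means in it were those of C1QB and C1QC, at 453 and 307 FPKM. The 3 called markers differed by pool. CD68 was read from gene 103158530, and another gene ID that the paper lists for CD68 was not read here. In steatosis pools 1 to 4 CD68 was at 36.8, 63.8, 58.1 and 29.3 FPKM. In the same pools MSR1 was at 34.8, 42.3, 43.7 and 30.65 FPKM and MARCO at 55.7, 47.0, 42.6 and 108 FPKM. CD68 and MSR1 were thus lowest in pool 4, where MARCO was highest. Of 9 hepatocyte markers, limma called 0 and treat 0 in either direction. At an unadjusted p under 0.05, 0 of them were higher and 3 lower, beside 37.8% and 4.13% of all features. The median log2 fold change of the 9 markers was -0.03, against 0.25 over all features. Under median ratio scaling it was -0.31, against -0.01. In bulk liver, more cells of a type and more RNA per cell cannot be told apart, and the part of macrophages in the lysosomal values was not tested.

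In the other cell type lists the calls were of single genes. Of 11 leukocyte markers tested, 1 was higher (NKG7), or 9.09% beside 6.01% of all features. In the lower direction 1 was called (MS4A1), beside 0.334% of all features. Of 10 stellate and endothelial markers 1 was higher (LRAT), or 10.0% beside the same 6.01%. Of 3 cholangiocyte markers limma and treat called 0, with 1 higher at an unadjusted p under 0.05, beside 37.8% of all features. The summed leukocyte markers ranged from 41.9 to 72.0 FPKM initially and from 77.5 to 82.8 FPKM in steatosis, but without NKG7 they overlapped, at 30.7 to 56.9 and 41.9 to 50.1 FPKM.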

How the data were processed

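RNAseq of 8 liver pools (4 initial, 4 steatosis) was analysed, with groups taken from the sample titles. The authors filtered reads, mapped them with HISAT2 2.0.4 to Sus scrofa 11.1, assembled transcripts with StringTie 1.0.4 and estimated expression with Bowtie2 2.2.5 and RSEM 1.2.12 (versions per the submitters' processing notes and the study's methods). FPKM values were deposited by the authors with no stated scaling between libraries, so a shift in overall composition moves all values of a library. Other deposited tables hold the authors' own comparisons of pool pairs and were not used, apart from the transcript lengths in one of them, which served to estimate relative depth and the approximate reads of MCOLN3.

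Features that reached 0.3 FPKM in 4 or more of the 8 libraries were transformed to log2(FPKM + 0.1) and fitted with limma 3.58.1 (R 4.3.3, trend option), with no term besides the group. This scale understates changes of low genes. Ratios and MCOLN3 were compared by two-sided exact permutation tests over 70 splits. Summaries used Python 3.11.15, numpy 2.4.6, pandas 2.3.3, scipy 1.17.1 and matplotlib 3.10.9. Coordinates are those of RefSeq for Sscrofa11.1, matched by gene ID for all 38 listed members.

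The number of reads was not used, so precision is the SD between pools, which may be partly technical. The main tests were unpaired. Blocking by pool was tried only as an alternative, since deviations from group means correlated at 0.16, 0.35, 0.32 and 0.25 between pools of the same number (-0.20 to 0.03 otherwise). The sources do not state this pairing. On simulated data for this comparison (13006 genes), 78 of 99 genes changed by a log2 factor of 1.5, 93 of 98 changed by 2 and 0 of 12809 unchanged genes were called. The simulated libraries held no shift in level between them, so these counts do not cover the effect of scaling.

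The members, the other lists, the ratio pairs and the tests were chosen with earlier results of these data known. Every member is named, with each pool's value for those called, the MiT/TFE factors and the mucolipins, and of other lists the largest called genes are named with those a sentence needs, apart from a few not reported here. Alternatives were 2 other scalings, no filter, a filter at 1 FPKM, pool pairs as a block, a pseudocount of 1, leaving out each library, an adjusted p of 0.001 and treat. A planned description of promoter motifs was not run.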

Additional observations from a re-analysis of the deposited data

Results flagged for a closer look

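Each group of 4 pools was checked for a highest or lowest value far from the others in the 38 listed members. Of the 76 groups checked, 1 was marked, where chance alone marks about 1 in 20. GLA, the alpha-galactosidase, was at 6.63 FPKM in initial pool 3, against 7.93 to 8.09 FPKM in the other 3 initial pools, a gap of 0.89 of the range, over Dixon's 95% critical value.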

How the results depend on the processing

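Calls past the fold limit numbered 6 under median ratio scaling, 6 under upper quartile scaling and 2 under treat, against 11. Calls at any fold numbered 15 and 15 under these scalings, against 24. The members' median log2 fold change was 0.54 and 0.58 under these scalings and 0.71 with a pseudocount of 1, against 0.82. Leaving out each library gave 9 to 12 calls, 17 to 23 at any fold and a median from 0.73 to 0.83, and 9 of the 11 calls held in all 8 such fits, the exceptions being HEXA and SCARB2. The 3 members nearest to 0 turned direction. Under median ratio and upper quartile scaling IDS was at -0.23 and -0.20, SMPD1 at -0.26 and -0.23, and GALC at -0.25 and -0.22. Leaving out each library, IDS ranged from -0.02 to 0.10, SMPD1 from -0.05 to 0.07 and GALC from -0.09 to 0.12.

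With the pool number as a block, 11 members were called, 22 were higher at any fold (TFEB and ARSA lost, at adjusted p 0.0199 and 0.011) and the median was 0.82. It changed no other call. For the ratios the paired exact sign-flip test over 4 pools cannot go below p = 0.125, which NPC2/NPC1 (0.45), GM2A/HEXA (0.82), LAMP1/LAMP2 (0.23) and LAPTM5/LAMP1 (0.89) reached, so it says nothing about their stability. Without each library these log2 differences ranged from 0.33 to 0.52, 0.66 to 0.99, 0.16 to 0.27 and 0.80 to 0.96. MCOLN3/MCOLN1 computed to 4.24 under the block and to 3.72 to 4.69 without each library, but its initial values rest on so few reads that neither its size nor this range can be read as a fold. With no filter 12 members were called, MCOLN3 included. Of 518 values of single members under an alternative, 422 kept their direction and their side of both the p limit and the fold rule. The p limit was lost in 59 and gained in 2, the fold rule was lost in 17 and met in 4, and direction turned in 15, all of IDS, SMPD1 or GALC. Why values moved was not tested.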

Other observations

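Grouped by substrate, a grouping made after the values were seen, the ganglioside and ceramide steps held large changes and the first step of sphingomyelin breakdown did not. GLB1, GM2A, HEXA, PSAP and ASAH1 had log2 fold changes of 1.64, 1.82, 1.0, 1.56 and 1.67 and were all called, while NEU1 (0.33), GALC (0.02) and SMPD1 (0.01) were not past the p limit. Among the genes of heparan sulfate breakdown, HPSE (1.52), SGSH (0.86) and GUSB (0.82) were past the limma p limit, and IDUA (0.33), HGSNAT (0.09) and IDS (0.04) were not.

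A new transcript without a gene symbol carries the description of an alpha-N-acetylglucosaminidase, the activity of NAGLU. BGI_novel_G000096 was at 5.39, 6.29, 6.22 and 5.24 FPKM in the initial pools and at 7.6, 9.75, 9.89 and 9.22 FPKM in steatosis, a log2 fold change of 0.64 (SE 0.12, limma adjusted p 0.00392). It was not counted as a member. The third mucolipin, MCOLN2, was at 6.96 ± 2.39 and 6.00 ± 2.19 FPKM (SD, n = 4 pools each), with a log2 fold change of -0.22 (limma adjusted p 0.574).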
